A study of Mus musculus with 3 samples.

Results

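The genes of the Hedgehog signalling pathway were followed in mouse sciatic nerve: the ligands Shh and Dhh, the receptor Ptch1, the signal transducer Smo, the co-receptor Boc, the ligand-binding inhibitor Hhip, and the transcription factors Gli1, Gli2 and Gli3. They were chosen by gene symbol, and these 9 of the 21438 genes with a row in any table were described across cell classes and nerve states. All 9 had a row in the tables of injured nerve, and 8 had one in the table of uninjured nerve, where Shh had none. The study asked what mesenchymal precursors in nerves of adult mice do in repair, and its cells were profiled by Drop-seq, which counts transcripts as unique molecular identifiers (UMIs) in droplets that each hold about a cell.

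The samples fell into 3 groups of 1 library each, all from sciatic nerve of adult mice digested with collagenase and trypsin. The injured bead library came from the distal nerve segment of wildtype CD1 mice 9 days after resection, with myelin taken out by beads. The injured FACS library came from the same injury in CD1 and C57BL/6 mice, with cells taken by fluorescence-activated cell sorting through a gate that the labels do not name, so isolation and strain differ together from the bead library. The uninjured library came from CD1 mice with myelin removal beads and is represented only by the cells that the authors predicted to be mesenchymal. How many animals stand behind each library is not given in the sources used here. With 1 library per group no comparison has a replicate check. The injured bead table held 4300 barcodes and 10859939 UMIs (median 1343 per barcode), the injured FACS library 2000 barcodes and 7122377 UMIs (median 2356.5), and the uninjured mesenchymal cells 880 barcodes and 2169121 UMIs (median 2102.5). The other table held the 1289 injured bead barcodes that the authors predicted to be mesenchymal (median 2798 UMIs), with the same counts as in the full table. The 2 injured libraries shared 1 barcode, and neither shared one with the uninjured library.

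Hedgehog ligands are secreted proteins that bind the receptor Ptch1 and so release Smo, which acts at the primary cilium and keeps the Gli transcription factors active. Gli1, Ptch1 and Hhip are themselves transcribed in response to the signal, so their transcripts are commonly read as a record of it, whereas Boc, Cdon and Gas1 are co-receptors that help the ligand to bind. In peripheral nerve, Dhh is known as a Schwann cell product that shapes the perineurium, the sheath around each nerve fascicle.

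In GRCm38 coordinates with the GENCODE vM21 annotation, Shh lies on chromosome 5 from 28456815 to 28467256 and Dhh on chromosome 15 from 98891152 to 98898540, both on the minus strand. Gli1 lies on chromosome 10 from 127329882 to 127341974, and Hhip on chromosome 8 from 79965851 to 80058006. Ptch1 (from 63508328 to 63573598) and Gli3 (from 15463235 to 15730026) both lie on chromosome 13. Gli2 lies on chromosome 1 from 118834132 to 119053619, Smo on chromosome 6 from 29735503 to 29761365 and Boc on chromosome 16 from 44485049 to 44558897. The Dhh span shares 3389 bases with Rhebl1 on the same strand, and Shh is overlapped on the opposite strand by 9530036O11Rik. Gli1 is overlapped on the opposite strand by the antisense gene Gm47200 over 9584 bases and by Arhgap9 over 62 bases. Counts under the name Gm47200 were not used here. How reads of overlapping genes were assigned is not given in the sources used here.

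Promoter windows from RefSeq, build GRCm38.p6, were found for 6 of the 9 members, Dhh, Ptch1, Hhip, Smo, Gli2 and Gli3. The windows of the ligand Dhh and of the response genes Ptch1 and Hhip are shown because the ligand and the response genes had their transcripts in different cell classes, described next. They run 5′ to 3′ on the minus strand, chr15:98898491-98898790, chr13:63565686-63565985 and chr8:80057959-80058258, and the single capital marks the annotated start site.
Dhh: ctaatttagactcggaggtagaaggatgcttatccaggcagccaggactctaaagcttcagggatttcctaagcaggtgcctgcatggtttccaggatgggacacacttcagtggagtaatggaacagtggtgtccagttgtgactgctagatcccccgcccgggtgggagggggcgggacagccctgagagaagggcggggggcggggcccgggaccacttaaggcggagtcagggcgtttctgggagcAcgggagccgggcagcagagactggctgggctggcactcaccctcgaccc
Ptch1: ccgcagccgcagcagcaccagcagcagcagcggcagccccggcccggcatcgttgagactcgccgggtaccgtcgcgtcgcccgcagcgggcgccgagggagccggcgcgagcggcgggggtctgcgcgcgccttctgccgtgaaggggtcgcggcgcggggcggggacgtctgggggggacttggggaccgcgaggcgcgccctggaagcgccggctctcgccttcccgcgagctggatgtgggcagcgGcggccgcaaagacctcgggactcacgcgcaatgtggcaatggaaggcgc
Hhip: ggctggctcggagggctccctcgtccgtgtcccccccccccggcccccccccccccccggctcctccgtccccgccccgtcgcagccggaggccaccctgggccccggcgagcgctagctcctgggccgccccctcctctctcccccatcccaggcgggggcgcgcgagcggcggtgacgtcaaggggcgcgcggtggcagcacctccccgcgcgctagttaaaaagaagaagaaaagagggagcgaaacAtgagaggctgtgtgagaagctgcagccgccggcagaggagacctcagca
The core GLI-binding motif GACCACCCA, read on both strands, had no exact match and no match with 1 mismatch in any of the 6 member windows. Over all 32851 RefSeq promoter windows of 300 bases, 0.253% held an exact match and 6.74% a match with at most 1 mismatch. The Ptch1 start site used, 63565735, lies inside the GENCODE span of the gene, whose 5′ end is at 63573598. Each window covers 300 bases at 1 start site and does not tell whether GLI sites lie elsewhere.

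Barcodes with at least 200 genes, 4111 in the injured bead table and 1914 in the injured FACS table, were clustered with the Hedgehog genes left out of the clustering genes, and clusters were named from marker lists. The 378 cells of the bead library and 375 of the FACS library in clusters that could not be named were left out of the classes. Levels are CPM, the UMIs of a gene summed over all cells of a class per 1000000 UMIs of that class, with an exact Poisson 95% interval, and a share is the percentage of cells with a UMI of the gene, with an exact binomial interval. The intervals cover counting error only. Drop-seq counts transcript ends and values were not scaled by gene length, so levels are compared between classes for 1 gene at a time.

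Both ligands were led by Schwann cell-like cells in both injured libraries. Shh reached 97.5 CPM (80.9 to 117) in the 476 Schwann cell-like cells of the bead library, from 120 UMIs in 57 cells, a share of 12.0% (9.2 to 15.2). In the 83 Schwann cell-like cells of the FACS library it reached 184.8 CPM (134 to 248), from 44 UMIs in 10 cells, again 12.0%. These cells held 83.3% of all Shh UMIs of the bead library and 86.3% of those of the FACS library. The other named classes held very few: in the bead library Shh had 2 UMIs in 1135 mesenchymal-like cells (0.46 CPM), 1 in endothelial cell-like cells (0.49 CPM), and 0 in the 510 mononuclear phagocyte-like cells (median 1073.5 UMIs). By 3 counts of these cells, that allows a share of cells with a UMI of up to 0.588% at this depth, which does not limit the share that express the gene.

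The FACS level of Shh rested in part on 1 cell with 20 of the 44 UMIs. Without it, an alternative added after the data were seen, the level was 102.5 CPM (65.7 to 153), close to that of the bead library. In the bead library no Schwann cell-like cell had more than 7 Shh UMIs, and the 10 cells with most held 49 of the 120.

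Dhh had 142 CPM (122 to 165) in Schwann cell-like cells of the bead library, with a UMI in 118 of 476 cells (24.8%, 21 to 28.9), and 147 CPM (102 to 204) in those of the FACS library, with a UMI in 21 of 83 cells (25.3%). The intervals of its level in both injured libraries overlapped. Endothelial cell-like cells came next, with 23.7 CPM (17.5 to 31.4) from 48 UMIs in 34 of 573 cells of the bead library and 32.3 CPM (15.5 to 59.5) from 10 UMIs in 5 of 83 cells of the FACS library. The FACS class was mixed, with pericyte or smooth muscle cell markers at a summed 2848 CPM beside 6958 CPM of endothelial markers. These stood at 205 and 8155 CPM in the bead class. In the bead library, Schwann cell-like cells exceeded endothelial cell-like cells in Dhh by log2 2.59 (2.12 to 3.08).

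The endothelial Dhh counts were set beside those of Schwann cell markers. Per 1000 UMIs of the 8 Schwann cell markers, Dhh had 485 UMIs in endothelial cell-like cells against 27.6 in Schwann cell-like cells of the bead library, and 1667 against 31.4 in the FACS library. Shh and Dhh stood at 1 and 48 UMIs in endothelial cell-like cells and at 120 and 175 UMIs in Schwann cell-like cells of the bead library. Rhebl1, the gene that overlaps Dhh, had 13.8 CPM in endothelial cell-like cells and 19.5 CPM in Schwann cell-like cells there. When cells with UMIs of at least 2 markers of another class were left out, 182 endothelial cell-like cells with 2 Dhh UMIs remained, or 11.03 CPM (1.34 to 39.9). They held 181280 of the 2026262 UMIs of the class, and this interval includes the unfiltered 23.7 CPM. The 46 cells without any marker of another class, with 36253 UMIs in all, had 0 Dhh UMIs, with an upper limit of 102 CPM. In the FACS library 15 cells remained by the first filter, with 0 Dhh UMIs and an upper limit of 406 CPM. The part of RNA from other cells and of Rhebl1 in the endothelial Dhh counts was not tested. Elsewhere in the bead library, 0 of 510 mononuclear phagocyte-like cells (median 1073.5 UMIs) and 0 of 278 pericyte or smooth muscle cell-like cells (median 1829) had a Dhh UMI. T or NK cell-like cells had 3.75 CPM, from 1 UMI, and mesenchymal-like cells 0.91 CPM, from 4. Median depth was 2159.5 UMIs in Schwann cell-like and 1935 in endothelial cell-like cells. Thinned to 500 UMIs per cell, the Dhh share was 5.65% in Schwann cell-like cells and 0.634% in endothelial cell-like cells, and the Shh share in Schwann cell-like cells was 3.69%.

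**Figure D1:**
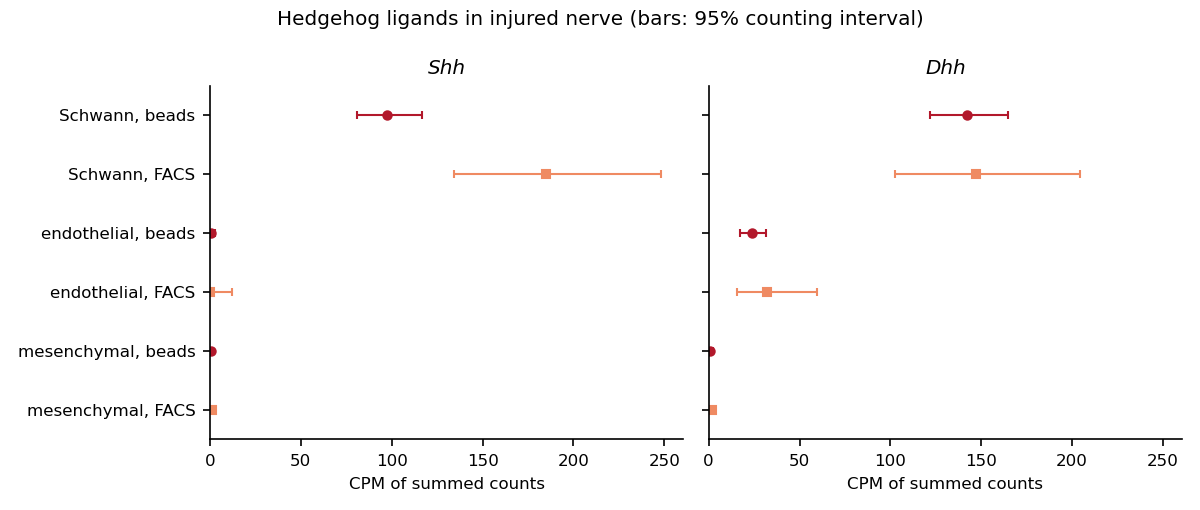
Levels of Shh and Dhh (x axes, CPM of summed UMI counts) in Schwann cell-like, endothelial cell-like and mesenchymal-like cells of the injured bead library (circles) and the injured FACS library (squares). Bars are 95% Poisson intervals. In Schwann cell-like cells Shh had 97.5 CPM in the bead and 184.8 CPM in the FACS library, Dhh had 142 and 147 CPM, and endothelial cell-like cells of the bead library had 23.7 CPM of Dhh and 0.49 CPM of Shh.

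The UMIs of Shh were gathered in fewer Schwann cell-like cells than those of Dhh. In the bead library the 10 cells with most Dhh UMIs held 37 of its 175, and no cell had more than 6. Uninjured Schwann cells were not analysed here, so the ligand levels have no uninjured value beside them. Some Schwann cell-like cells had UMIs of both ligands. Of the 476 in the bead library, 16 had both, 41 had Shh alone, 102 had Dhh alone and 317 had neither. Of the 83 in the FACS library, 4 had both, 6 had Shh alone, 17 had Dhh alone and 56 had neither. Dhh was thus seen in 16 of the 57 bead cells with Shh, beside 118 of all 476. In the FACS library it was seen in 4 of 10, beside 21 of all 83. Cells with neither were the shallowest in both libraries, with a median of 1521 UMIs in the bead library against 3626.5 in those with both, so a missing UMI is no sign that a cell lacked the transcript.

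Among the named classes, the remaining members were highest in mesenchymal-like cells. Of the 8 members with at least 10 CPM in a named class of the bead library, 6 were highest in mesenchymal-like cells, against 9.47% of all 12909 such genes, and Shh and Dhh in Schwann cell-like cells, against 17.5%. In the FACS library all 9 reached that level, and 7 were highest in mesenchymal-like cells, against 17.5% of 11347 genes, and Shh and Dhh again in Schwann cell-like cells, against 36.1%.

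**Figure D2:**
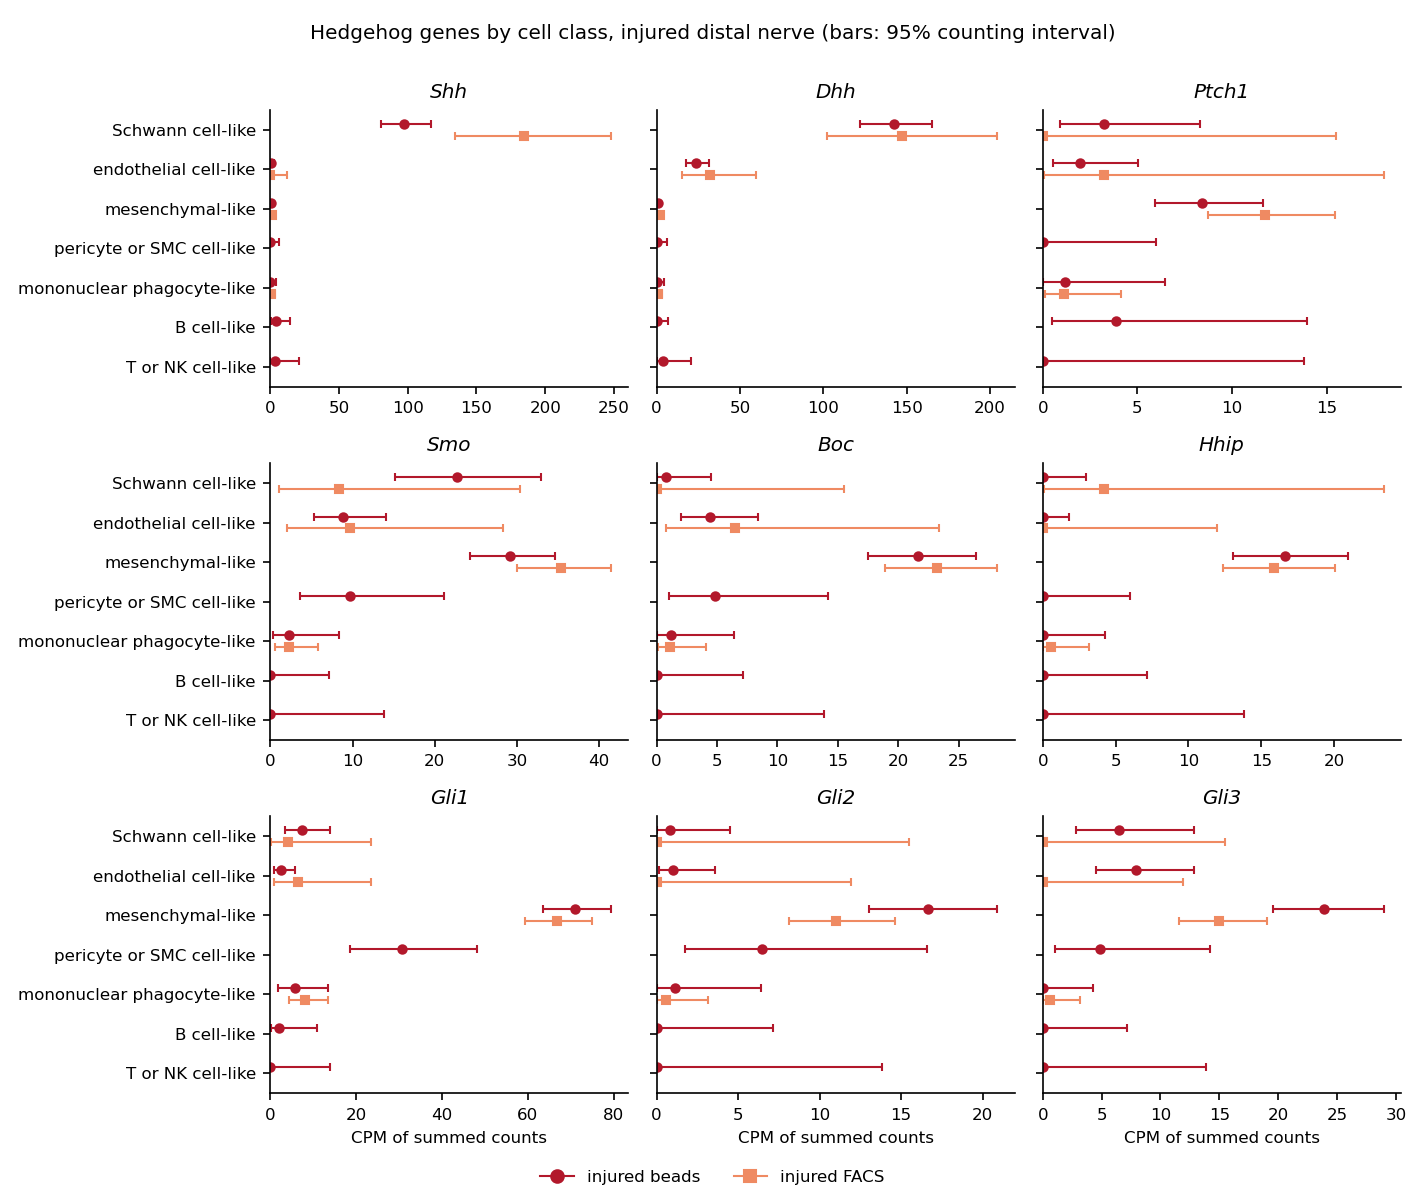
Levels of the 9 Hedgehog genes (x axes, CPM of summed UMI counts, each on its own scale) in cell classes of at least 50 cells of the injured bead library (circles) and the injured FACS library (squares). Bars are 95% Poisson intervals. Shh and Dhh were highest in Schwann cell-like cells and the other genes in mesenchymal-like cells, and Gli1 also reached 30.8 CPM in pericyte or smooth muscle (SMC) cell-like cells.

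The receptor Ptch1 was sparse: it had 8.43 CPM (5.94 to 11.6) in mesenchymal-like cells of the bead library, with a UMI in 2.91% of cells, and 11.7 CPM in those of the FACS library. In Schwann cell-like cells of the bead library it had 3.25 CPM. Smo, the transducer, was seen in several classes, with 29.2 CPM (24.3 to 34.7) in mesenchymal-like, 22.8 CPM (15.1 to 32.9) in Schwann cell-like, 9.72 CPM in pericyte or smooth muscle cell-like and 8.88 CPM in endothelial cell-like cells of the bead library. The mesenchymal-like and Schwann cell-like intervals overlapped there. In the FACS library Smo had 35.4 CPM (30 to 41.5) in mesenchymal-like cells and 8.40 CPM in Schwann cell-like cells.

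Boc, the co-receptor, had 21.6 CPM (17.5 to 26.5) in mesenchymal-like cells of the bead library and 23.2 CPM in those of the FACS library, and 0.81 CPM in Schwann cell-like cells of the bead library. Hhip, which binds ligand at the cell surface and keeps it from Ptch1, was the member most tied to mesenchymal-like cells. They held 92.4% of its UMIs in the bead library and 95.8% in the FACS library, and its level was 16.6 CPM in the bead library, from 73 UMIs in 44 cells, and 15.9 CPM in the FACS library.

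Gli1, the factor whose own transcription follows the signal, had 71.1 CPM (63.4 to 79.4) in mesenchymal-like cells of the bead library, from 312 UMIs in 245 of 1135 cells (21.6%, 19.2 to 24.1). In mesenchymal-like cells of the FACS library it had 66.9 CPM (59.4 to 75.1) and a UMI in 27.4% of cells. Pericyte or smooth muscle cell-like cells of the bead library came next with 30.8 CPM (18.5 to 48.1), below mesenchymal-like cells by log2 1.21 (0.54 to 1.96), and Schwann cell-like cells had 7.31 CPM. Mononuclear phagocyte-like cells had 5.78 CPM and 0.98% of cells in the bead library. In the FACS library they had 7.99 CPM and 2.19% of cells. Lower still in the bead library were endothelial cell-like (2.47 CPM), B cell-like (1.93 CPM) and T or NK cell-like cells (0). Arhgap9, whose end overlaps Gli1, had 102 CPM in mononuclear phagocyte-like, 161 CPM in T or NK cell-like and 81.2 CPM in B cell-like cells there. It had 0.99 CPM in endothelial cell-like cells. The part of Arhgap9 in the Gli1 counts was not tested. Thinned to 500 UMIs per cell, the Gli1 share of the bead library was 3.03% in mesenchymal-like cells and 0.23% in mononuclear phagocyte-like cells. In the bead library the Schwann cell-like and mononuclear phagocyte-like levels of Gli1 did not differ beyond counting error (log2 0.34, −1.39 to 2.27). The mesenchymal-like level was above both. Mesenchymal markers summed to 11863 CPM in Schwann cell-like and 2342 CPM in mononuclear phagocyte-like cells of the bead library. The part of mesenchymal RNA in these Gli1 counts was not tested.

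Gli3, mostly a repressor when no ligand is bound, had 23.9 CPM (19.6 to 29) in mesenchymal-like cells and 7.90 CPM in endothelial cell-like cells of the bead library, a log2 difference of 1.599 (0.83 to 2.46). Gli2, the main activator, had 16.6 CPM (13 to 20.9) in mesenchymal-like cells and 6.48 CPM in pericyte or smooth muscle cell-like cells, and these did not differ beyond counting error (log2 1.36, −0.06 to 3.27). In mesenchymal-like cells of the FACS library, Gli3 had 14.9 CPM and Gli2 11.04 CPM.

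Mesenchymal cells were then compared between injured and uninjured nerve, in the cells that the authors predicted to be mesenchymal. The summed levels of other cell types' markers also differed between these tables. Mononuclear phagocyte markers summed to 344 CPM in the injured cells and 32.3 CPM in the uninjured cells, where C1qa was at 0. Schwann cell markers (8 of 8 seen in each) summed to 75.6 CPM in the injured cells and 310 CPM in the uninjured cells, endothelial markers to 189 and 231 CPM, pericyte or smooth muscle cell markers to 181 and 193 CPM, and red blood cell markers to 103 and 1489 CPM. The part of these transcripts in the following ratios was not tested.

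Gli1 did not differ beyond counting error between injured and uninjured mesenchymal cells, with 71.6 CPM after injury and 73.8 CPM without it, a log2 ratio of −0.04 with an interval of −0.32 to 0.24. The Gli1 share was 20.9% of the injured cells and 14.7% of the uninjured cells, and 4.41% and 3.43% after thinning to 500 UMIs. A gene was called different by a size rule: at least 10 CPM in 1 pool, a change of at least 2-fold and an exact interval of the ratio that leaves out 1. Of the 6 members that could be tested, Gli2 alone passed it, with 18.3 CPM in the injured cells and 5.53 CPM in the uninjured cells (87 and 12 UMIs, log2 1.73, 0.85 to 2.74). Over all 9783 genes tested, 10.1% were called higher and 6.9% lower in injured cells.

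Of the 87 injured Gli2 UMIs, 60 (69.0%) lay in the differentiating-like subclass described next, which held 403 of the 1289 injured cells and 1 of the 880 uninjured cells. In the 3 subclasses present in both libraries Gli2 rested on few UMIs. In endoneurial-like cells it stood at 7.33 CPM after injury and 1.80 CPM without it, from 12 and 2 UMIs (log2 2.03, −0.14 to 5.23). In epineurial-like cells it stood at 12.3 CPM after injury and 4.41 CPM without it, from 5 and 4 UMIs (1.48, −0.74 to 3.81). In perineurial-like cells it had 14.0 CPM in the injured and 43.4 CPM in the uninjured library, from 3 and 6 UMIs (−1.63, −4.25 to 0.60). Given the same weight in each library, these 3 subclasses had a joint Gli2 ratio of log2 −0.56 (−1.88 to 0.76), so its sign rests on the 9 perineurial-like UMIs, and it does not tell whether Gli2 differed within subclasses.

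For Boc, the level was 21.3 CPM in the injured cells and 32.3 CPM in the uninjured cells (log2 −0.60, −1.05 to −0.14), a difference beyond counting error that stayed under 2-fold. Gli3 had 25.9 CPM in the injured cells and 19.4 CPM in the uninjured cells (log2 0.42, −0.10 to 0.96). Smo had 28.2 and 21.2 CPM (0.41, −0.08 to 0.93), and Hhip had 14.96 and 12.0 CPM (0.32, −0.35 to 1.03), with the injured value first. Ptch1, at 7.80 CPM in the injured cells and 6.92 CPM in the uninjured cells, was under the 10 CPM needed for a call. The ligands were near 0 in both tables: Dhh had 8 UMIs in the injured cells and 2 in the uninjured cells, and Shh had 3 in the injured cells. The median log2 ratio of the 6 members was 0.37, beside 0.19 over all genes tested.

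The mesenchymal-like cells of the FACS library, set against the same uninjured cells, gave no member past the rule among 7 tested, where 11.3% of 9745 genes were called higher and 8.49% lower. Gli1 had a log2 ratio of −0.14, Gli2 of 0.997 (0.06 to 2.04), just under the 2-fold needed, Smo of 0.74 (0.26 to 1.25) and Ptch1, at 11.7 CPM in the FACS cells, of 0.76. Boc had −0.47, Gli3 −0.37 and Hhip 0.40. Both sets of ratios share the uninjured cells, and the FACS cells were chosen by clustering and not by the authors. Mononuclear phagocyte markers summed to 1205 CPM in the FACS mesenchymal-like cells.

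**Figure D3:**
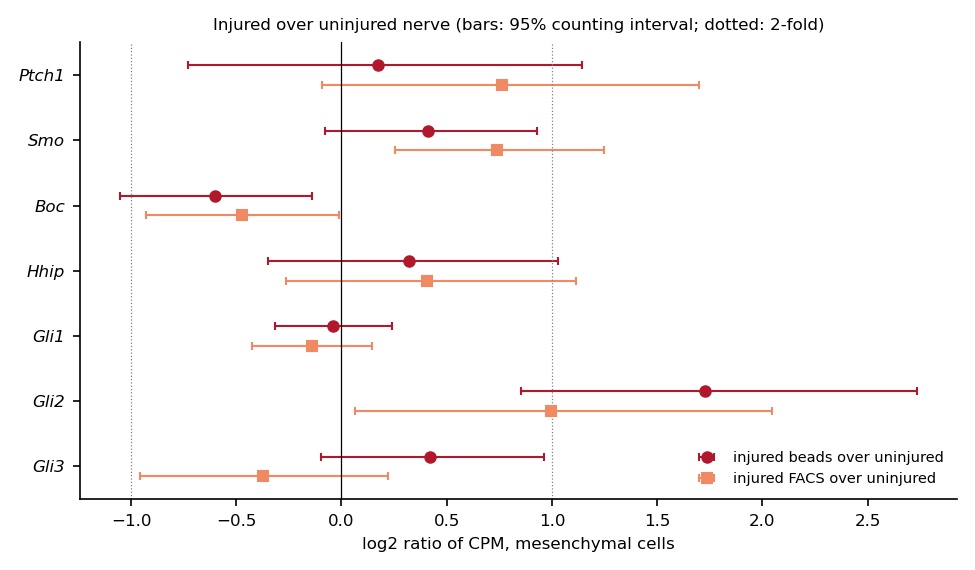
Log2 ratios of CPM (x axis) in mesenchymal cells of injured over uninjured nerve, for injured bead cells (circles) and injured FACS cells (squares), with 95% intervals of counting error and dotted lines at 2-fold. Both sets share the uninjured cells. Gli2 at 1.73 in bead cells was the only value past the rule, and Gli1 sat at −0.04 and −0.14.

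The injured bead and uninjured mesenchymal tables were clustered together and divided into subclasses by markers. Endoneurial-like cells, of the tissue around the axons inside a fascicle, numbered 248 injured and 427 uninjured cells. Epineurial-like cells, of the outer connective tissue, numbered 199 and 381, and perineurial-like cells, of the fascicle sheath, 74 and 66, with the injured count first. Differentiating-like cells, named from genes such as Dlk1, Mest and Postn, numbered 403 injured and 1 uninjured, and 365 injured and 5 uninjured cells stayed unnamed. The endoneurial-like cells sat in different clusters by library: 247 of the 248 injured cells in one led by Wif1 and Ccl9, and all 427 uninjured cells in one led by Angptl7 and Enpp2. The FACS mesenchymal-like cells, clustered on their own, held 94 endoneurial-like, 125 epineurial-like, 134 differentiating-like and 345 unnamed cells.

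Boc and Hhip were lower in endoneurial-like than in epineurial-like cells of every library. Boc had 1.22 CPM in endoneurial-like and 29.4 CPM in epineurial-like cells of the injured bead library (log2 −4.59, −7.79 to −2.42), 0 and 30 UMIs in those of the FACS library, at least 17.3-fold lower in endoneurial-like cells against a floor of 3 counts over the pool, and 0.90 and 66.1 CPM in those of the uninjured library (log2 −6.20, −11.53 to −3.67). Hhip had 0.61 CPM in endoneurial-like and 19.6 CPM in epineurial-like cells of the injured bead library (−5.00, −10.48 to −2.11), 2.23 and 36.6 CPM in those of the FACS library (−4.04, −7.18 to −1.99), and 0 and 22 UMIs in those of the uninjured library, at least 8.99-fold lower.

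The receptor Ptch1 had the opposite pattern. It had 22 UMIs in endoneurial-like and 0 in epineurial-like cells of the injured bead library, where the bound of log2 0.87 fell short of the 2-fold rule, 15 and 0 in those of the FACS library (bound of log2 1.53), and 13 and 2 in those of the uninjured library (log2 2.41, 0.26 to 5.60). Gli1 was higher in endoneurial-like than in epineurial-like cells by log2 1.38 (0.53 to 2.33) in the FACS library and by 1.42 (0.84 to 2.03) in the uninjured library, but not in the injured bead library (−0.45, −1.04 to 0.18). Smo passed the rule in the bead library, where it was lower in endoneurial-like cells (−1.25), and Gli3 did so in the FACS library (−1.89).

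By the size rule, 0 members were higher and 3 lower in endoneurial-like cells of the injured bead library among 7 tested, where 7.49% of all genes were higher and 13.1% lower. In the FACS library 2 were higher and 3 lower among 6 tested, beside 8.51% and 11.1% of all genes, and in the uninjured library 2 were higher and 2 lower among 6 tested, beside 8.9% and 11.1%. Members that could be tested had to be high in at least 1 subclass, so these counts describe and do not test the set.

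Of the other receptors and co-receptors, from the wider pathway list, Cdon and Gas1 differed in the same direction as Boc. Among the 5 tested, 1 was higher and 3 lower in endoneurial-like cells of the injured bead library. In the FACS and uninjured libraries 2 were higher and 3 lower in each, beside the shares of all genes given above. Cdon, which is related to Boc, had 1.22 CPM in endoneurial-like and 177 CPM in epineurial-like cells of the injured bead library (log2 −7.17, −10.25 to −5.27), 1.11 and 96.2 CPM in those of the FACS library (−6.43, −11.76 to −3.89), and 4.49 and 140 CPM in those of the uninjured library (−4.96). Gas1, a membrane-anchored co-receptor, had 48.9 and 633 CPM (−3.69) in the injured bead library, 51.2 and 502 CPM (−3.29) in the FACS library, and 31.5 and 946 CPM (−4.91) in the uninjured library, endoneurial-like first in each. Gpc3, a glypican known to compete with Ptch1 for ligand, went the other way, with log2 ratios of 1.11, 1.09 and 2.06 in the same 3 libraries. Scube1, a secreted protein of a family that helps ligand release, had 93.5 CPM in endoneurial-like cells and 0 in epineurial-like cells of the injured bead library, 72.4 and 3.85 CPM in those of the FACS library (log2 4.23, 2.32 to 7.31), and 10.8 and 1.10 CPM in those of the uninjured library (3.29, 0.53 to 8.71).

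**Figure D4:**
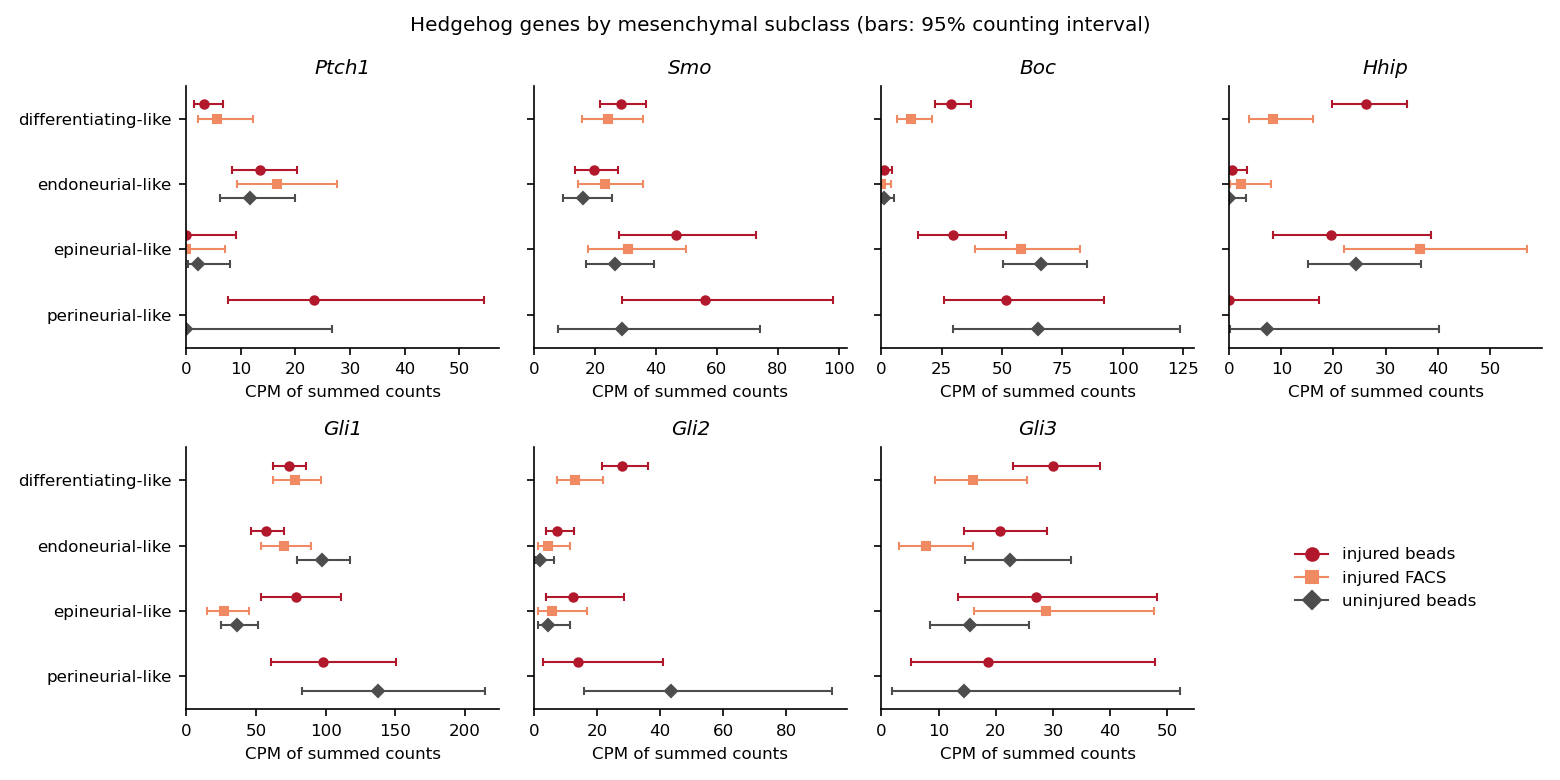
Levels of the 7 receptor, inhibitor and response genes (x axes, CPM of summed UMI counts, each on its own scale) by mesenchymal subclass in injured bead (circles), injured FACS (squares) and uninjured bead (diamonds) cells. Bars are 95% Poisson intervals. Boc and Hhip were near 0 in endoneurial-like cells of every library, and Gli1 in epineurial-like cells stood at 78.5 CPM in the injured bead, 26.9 CPM in the injured FACS and 36.4 CPM in the uninjured library.

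Boc and Hhip were higher in differentiating-like than in endoneurial-like cells of the injured bead library. Boc had 29.0 CPM in differentiating-like and 1.22 CPM in endoneurial-like cells (log2 4.57, 2.65 to 7.65), Hhip 26.2 and 0.61 CPM (5.42, 2.88 to 10.75) and Gli2 28.1 and 7.33 CPM (1.94), whereas Ptch1 had 3.27 and 13.4 CPM (−2.04). Thus 3 of 7 members tested were higher and 1 lower, where 13.6% of all genes were higher and 6.42% lower. Gli1 was detected at 73.4 CPM in differentiating-like and 57.5 CPM in endoneurial-like cells.

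In the FACS library Boc had 13 UMIs in differentiating-like and 0 in endoneurial-like cells, Hhip had 8.43 and 2.23 CPM, and Ptch1 had 5.62 and 16.7 CPM (−1.57). Boc and Ptch1 were the only members past the rule there among 6 tested, with 9.7% of all genes higher and 7.02% lower. Cdon (65.9 against 1.22 CPM) and Gas1 (228 against 48.9 CPM) were also higher in the differentiating-like cells of the bead library.

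Perineurial-like cells had few UMIs, which limits what can be read. Ptch1 had 5 UMIs in the 74 perineurial-like cells and 0 in the epineurial-like cells of the injured bead library (bound of log2 1.67), the only 1 of 7 members past the rule, where 10.2% of all genes were higher and 6.58% lower. Among the named subclasses Gli1 was highest in them, at 98.3 CPM (60.8 to 150.2) in the injured bead library and 137 CPM (82.7 to 214) in the uninjured library. The injured interval overlapped those of the other named subclasses, and the uninjured one overlapped that of endoneurial-like cells and lay above that of epineurial-like cells (25.02 to 51.1). When each injured cell took the subclass of its highest marker score, Ptch1 was highest in endoneurial-like, Smo in epineurial-like and Gli2 in perineurial-like cells, and the other 4 members kept their highest subclass.

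Within subclasses, the Gli1 ratios of injured bead over uninjured cells had opposite signs, and the difference between them was not tested. In epineurial-like cells it had 78.5 CPM in the injured library and 36.4 CPM in the uninjured library, from 32 and 33 UMIs (log2 1.11, 0.36 to 1.86). In endoneurial-like cells it had 57.5 CPM in the injured library and 97.1 CPM in the uninjured library (log2 −0.76, −1.17 to −0.34), a difference beyond counting error but under 2-fold. When each cell took the subclass of its highest marker score, the epineurial-like ratio was log2 0.76 (−0.02 to 1.54), no longer past the rule, and the endoneurial-like ratio −0.47 (−0.87 to −0.07). The FACS library had 26.9 CPM of Gli1 in epineurial-like cells and 70.2 CPM in endoneurial-like cells, so its epineurial-like level was not above that of the uninjured library.

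Boc was lower in injured than in uninjured epineurial-like cells, at 29.4 CPM in the injured bead library and 66.1 CPM in the uninjured library (log2 −1.17, −2.20 to −0.26). The FACS library had 57.7 CPM. Of the 6 members tested in epineurial-like cells 1 was thus higher and 1 lower, beside 4.98% and 2.21% of all genes. None of 4 tested in endoneurial-like cells passed the rule (10.5% of all genes higher, 9.8% lower), and none of 6 in perineurial-like cells (2.86% higher, 4.32% lower).

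The other 6 receptor and response genes were also compared between cells with and without a Gli1 UMI, in 3 subclasses of the injured bead library and 2 of the uninjured library. In injured differentiating-like cells of the bead library, Hhip had 38.8 CPM (25.8 to 56.1) in cells with a Gli1 UMI and 19.8 CPM (13.1 to 28.6) in cells without, and Ptch1 had 6.93 and 1.41 CPM, from 5 and 2 UMIs. The cells with a Gli1 UMI were deeper, with a median of 5443 UMIs against 4445.5, and the intervals of Hhip overlapped. Boc in uninjured epineurial-like cells was the only value whose intervals did not overlap, with 148 CPM (79.0 to 254) in the 29 cells with a Gli1 UMI and 57.3 CPM (42.1 to 76.2) in the 352 without, again with a deeper median of 3104 UMIs against 1960.5. In injured endoneurial-like cells Hhip had 0 UMIs in cells with a Gli1 UMI and 1 in those without, and in injured epineurial-like cells Ptch1 had 0 in both.

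The wider pathway was read from a list of 60 further genes, of which 58 had a value and 45 could be tested between injured bead and uninjured mesenchymal cells. Higher in injured cells were 2, beside the 10.1% of all genes given above: Scube1, with 36.7 CPM after injury and 6.45 CPM without it (log2 2.51), and Hhat, the enzyme that attaches palmitate to the ligands, with 21.7 and 6.92 CPM (1.65). Lower were 7, beside 6.9% of all genes: the co-receptor Gas1 (187 CPM after injury and 429 CPM without it, log2 −1.20), the glypicans Gpc3 (−1.04), Gpc4 (−1.32) and Gpc6 (−1.06), and the downstream genes Bmp4 (5.69 CPM after injury and 75.1 CPM without it, −3.72), Bmp2 (−1.05) and Fst (−1.40), which encode BMP ligands and the BMP and activin antagonist follistatin. The median of the tested list was −0.08, beside 0.19 over all genes.

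The counts by role are small and describe the list only. None of the 24 genes tested of the cilium and transduction passed the rule, among them Gnas, with 3046 CPM in FACS mesenchymal-like cells, and Csnk1a1, with 753 CPM in Schwann cell-like cells of the bead library. Of the 3 tested for ligand processing and release 2 were higher, of the 5 receptors and co-receptors 0 were higher and 4 lower, and of the 13 downstream or target genes 3 were lower. The FACS mesenchymal-like cells against the same uninjured cells gave 2 higher (Hhat 2.01 and Scube1 1.49) and 8 lower of 44, beside 11.3% and 8.49% of all genes, with Bmp4 at −3.60, Gpc4 at −1.81, Gpc3 at −1.75 and Fst at −1.46. Over the 3 shared subclasses at the same weight, Bmp2 had a bead over uninjured ratio of 0.02, and Bmp4 and Gpc6 alone stayed past the rule among the genes that were lower.

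**Figure D5:**
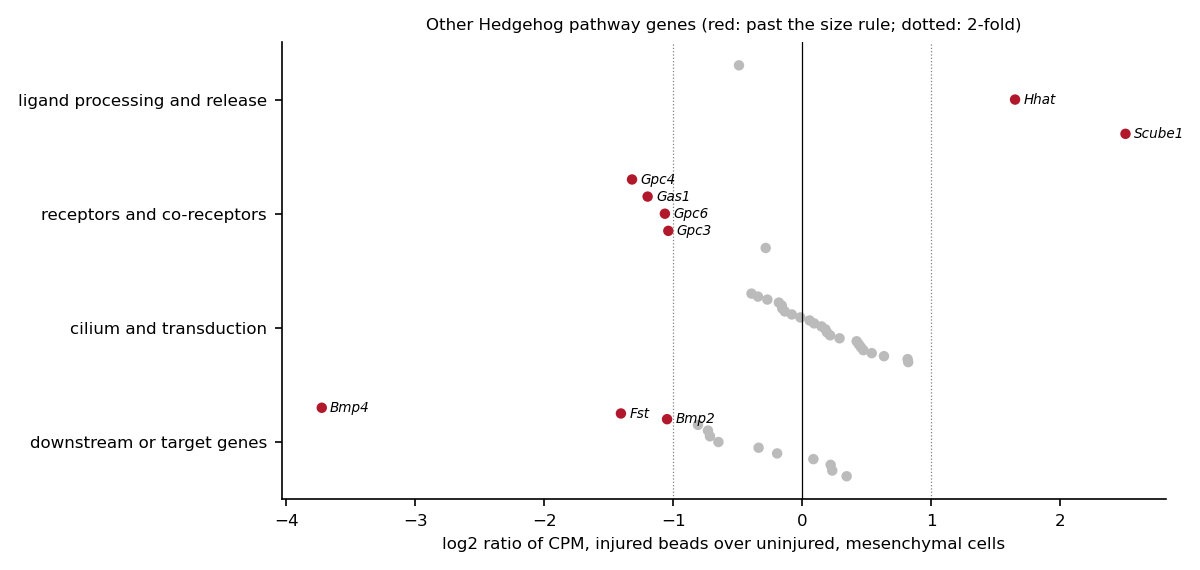
Log2 ratios of CPM (x axis) of the 45 further pathway genes tested in mesenchymal cells of injured bead over uninjured nerve, by role (rows, with genes spread vertically for legibility only). Red points are past the size rule and named, and dotted lines mark 2-fold. The 24 cilium and transduction genes all lay inside these lines, and Bmp4 at −3.72 and Scube1 at 2.51 lay farthest out.

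The genes with the class pattern most like each member were ranked by Pearson's r of log2(CPM + 10) over 13 pools, the named classes of at least 50 cells in both injured libraries and the uninjured mesenchymal cells, among 7757 genes. The pools of a library share its depth and its free RNA, so r is a description. Closest to Shh were Syt4, Soga3 and Zfp536 (r = 0.990 each), and closest to Dhh were Ttc9 (0.989), Pllp (0.979) and Trim13 (0.961). Shh was high only in the Schwann cell-like pools. With log2(CPM + 1) none of its listed genes was kept, while Ttc9 and Trim13 were kept for Dhh. Closest to Gli1 were Sod3 (0.974), Adamts15 (0.972) and Lrrc17 (0.968), and to Boc Pi16 (0.971), Nova1 (0.960) and Flrt2 (0.958). Closest to Smo were Spats2l (0.963), Fkbp7 (0.959) and Fam114a1 (0.952), and to Gli3 Vldlr (0.938), Pcsk5 (0.936) and Cyp26b1 (0.932). Pi16 was itself on the epineurial marker list used to name subclasses.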

How the data were processed

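Drop-seq UMI counts per gene and barcode were used as deposited, in 4 tables of 3 libraries. The authors used genome build mm10, per the submitters' processing notes. Not given in the sources used here are the aligner, how overlapping genes were counted, and the rule by which mesenchymal cells were picked. Counts agreed in both tables for the 1289 shared injured barcodes. Barcodes with at least 200 genes were clustered (scanpy 1.11.5, leidenalg 0.10.2, 2000 variable genes without Hedgehog genes, 30 principal components, 15 neighbours, resolution 0.8) and named from marker lists by a scoring rule set after the data were seen. No doublet caller was run, so doublets remain. Counts were summed per class and compared as CPM with exact Poisson, binomial and conditional binomial 95% intervals (scipy 1.17.1). A ratio was called at 10 CPM or more in 1 pool, 2-fold or more and an interval without 1, and a pool at 0 was set to 3 counts. With 1 library per group no test was made and no p-value is given. The intervals treat UMIs as independent and cover neither animals nor libraries. The members and gene lists were chosen with earlier results of these data known. All 9 members are named, with the pathway genes past the rule in injured bead over uninjured cells, those highest in each role group, and the 3 genes most like each member of at least 20 CPM. Some results are not reported here. Alternatives were other floors, scalings (edgeR 4.0.16 TMM, DESeq2 1.42.0 size factors), resolutions, gene minimums, naming by marker score, cells without other classes' markers, and subclasses at the same weight.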

Additional observations from a re-analysis of the deposited data

Results flagged for a closer look

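The Gli1 ratio of injured bead over uninjured nerve had opposite signs in 2 mesenchymal subclasses. It was log2 1.11 in epineurial-like cells (78.5 CPM after injury and 36.4 CPM without it) and −0.76 in endoneurial-like cells (57.5 CPM after injury and 97.1 CPM without it). With 1 library per state, the difference between these ratios was not tested. Perineurial-like cells gave −0.48 (−1.45 to 0.49). In cells with at least 1000 UMIs, an alternative added after the data were seen, the ratios were 1.14 and −0.70. With each cell in the subclass of its highest marker score they were 0.76 (−0.02 to 1.54), no longer past the rule, and −0.47 (−0.87 to −0.07). Endoneurial-like cells of the injured and uninjured libraries lay in different clusters, and the FACS library had 26.9 CPM of Gli1 in epineurial-like cells.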

How the results depend on the processing

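No paired analysis was possible because each group has 1 library and no result comes from a test, and no replicate could be left out for the same reason. Each member of the bead and FACS libraries kept its highest class at resolutions 0.4 and 1.6 and with at least 500 genes per barcode, and with cells named by marker score 8 of 9 did in the bead library and 6 of 9 in the FACS library. Against the main count of 1 member past the rule in injured bead over uninjured cells, a floor of 50 CPM left 0, as did the FACS library in place of the bead library. With that floor the pathway list had 0 genes higher (main 2), and all genes had 324 higher and 283 lower (main 991 and 675). With no floor, 1094 genes were lower. With 3 subclasses at the same weight, 649 genes were higher and 2 pathway genes (main 7) lower, and the log2 ratios of Gli2 (−0.56) and Bmp2 (0.019) changed sign. That of Gli2 rests on 9 perineurial-like UMIs, since endoneurial-like (2.03) and epineurial-like (1.48) cells had positive ratios. Under the same weights Ptch1 had 1.41 (0.30 to 2.52), past the rule. That value rests on 5 injured and 0 uninjured perineurial-like UMIs, whose own ratio was not called. Its interval is too narrow, since it gives a count of 0 no counting error. Named by marker score, 4 of 7 members kept their highest injured subclass. With log2(CPM + 1), 7 of the 18 most similar genes were shared. DESeq2 size factors and TMM shifted bead ratios by log2 0.120 and 0.127 and left 1 member and 2 higher and 7 lower pathway genes past the rule. Leaving out cells with 2 or more markers of another class kept 60 of 476 Schwann cell-like cells of the bead library, with 55690 of 1230562 UMIs. There Shh had 269 CPM (151 to 444) from 15 UMIs and Dhh 215 CPM (111 to 376) from 12, with overlapping intervals. The cause of these changes was not tested. Of the values of single genes under an alternative, 233 kept their call or stayed within the counting error, and 28 moved beyond it. A further 14 lost the call, 2 gained it and 2 changed sign with a call in at least 1 setting. Sign changes without a call are among the 233, as for Gli3, at 0.42 in bead and −0.37 in FACS cells over uninjured cells. Depth limits Ptch1, at 37 UMIs in all injured mesenchymal cells.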

Other observations

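Some Hedgehog UMIs of the injured bead library lay in the 2 unnamed clusters. A cluster of 111 dividing cells, led by genes such as Prc1 and Top2a and left unnamed, held 18 Shh UMIs (32.7 CPM) and 37 Dhh UMIs (67.2 CPM), with Gli1 at 43.6 CPM. Its mesenchymal (3.68) and Schwann cell (2.99) marker scores lay too close for a name, so its levels cannot be given to 1 cell class. Of its Shh UMIs 15 came from 1 cell, the highest of that library, and without it, an alternative added after the data were seen, the cluster had 3 Shh UMIs (5.52 CPM, 1.14 to 16.1). That cell had 7279 UMIs in all, none of Dhh, and UMIs of 7 of the 8 Schwann cell markers. The other unnamed cluster held 267 shallow cells (median 486 UMIs), led by the haemoglobin genes Hba-a1, Hbb-bt and Hbb-bs. Its red blood cell (5.23) and mesenchymal (4.49) marker scores lay too close for a name. It had no ligand UMI, and 134 CPM of Gli1 (86.0 to 199.7), 50.3 CPM of Gli2 (23.0 to 95.5), 44.7 CPM of Gli3 and 39.1 CPM each of Boc and Smo, which were above the mesenchymal-like levels of that library. Only for Gli1 and Gli2 did the intervals not overlap.

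Further genes of the pathway differed in where they were highest. Disp1, which releases ligand, was highest in Schwann cell-like cells of the FACS library at 25.2 CPM (9.25 to 54.8), from 6 UMIs. Scube3 was highest in pericyte or smooth muscle cell-like cells of the bead library at 22.7 CPM, and Ccnd2, a cyclin, and Bmp2 in the same cells at 619 and 159 CPM. Ccnd1, another cyclin, was highest in Schwann cell-like cells at 647 CPM and Bmp4 in endothelial cell-like cells at 83.9 CPM. Lrp2, a large endocytic receptor that can bind Shh, had 1 UMI in its highest pool.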
